A study of Neurospora crassa with 8 samples.

Results

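The 10 genes described here are those with which the filamentous fungus Neurospora crassa takes cellulose and xylan apart and turns the pathway on. They were taken by gene ID from a table of 9730 genes: the cellulases cbh-1 (NCU07340), gh6-2 (NCU09680) and gh5-1 (NCU00762), the xylanases gh11-1 (NCU02855) and gh10-2 (NCU08189), the cellodextrin transporters cdt-1 (NCU00801) and cdt-2 (NCU08114), and the regulators clr-1 (NCU07705), clr-2 (NCU08042) and xlr-1 (NCU06971). All 10 were found and all 10 passed the filter on low values. Poly-A RNA was sequenced from 2 wild type (WT) strains, N3752 with genotype mat A; WT and N3753 with genotype mat a; WT, and from 2 strains labelled ∆pas, N7617 and N7680, both mat a; Dpas::nat-1, in which the marker nat-1 stands at pas (NCU04278). There was 1 library per strain, called replicates 1 and 2 of each group in that order. All 4 cultures were shaken for 16 hours at 32 °C in Vogel's minimal medium with 1.5% sucrose, and the labels call the tissue germinated conidia. The series' title speaks of an accessory subunit of PRC2, and its design text sets ∆pas beside published WT and ∆set-7 data.

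Polycomb repressive complex 2, or PRC2, places methyl groups on lysine 27 of histone H3, which marks silent genes, and the gene set-7 encodes its methyltransferase. Secreted cellulases and xylanases cut plant cell wall polymers into short sugars, and transporters such as those encoded by cdt-1 and cdt-2 bring the cellulose fragments into the cell. The transcription factors CLR-1 and CLR-2 switch on the cellulose genes and XLR-1 the xylan genes, while a preferred sugar such as glucose or sucrose keeps the enzyme genes low, in part through the repressor CRE-1. The question was whether genes that sugar keeps low open when a part of PRC2 is lost.

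None of the 10 genes passed the test in the ∆pas-labelled libraries, against 0.365% of the 8219 genes tested (limma, Benjamini-Hochberg adjusted p under 0.05). The lowest adjusted p was 0.135, for cbh-1. On the recovered reads, edgeR called 0 of the 10 genes, against 0.353% of all tested. DESeq2 called 0 of the 9 to which it gave an adjusted p, all but gh10-2, against 7.52% of the 7900 genes with one. The genes did not lie on one side: cbh-1, cdt-1, clr-1 and xlr-1 were higher in both ∆pas-labelled libraries than in both WT libraries, gh5-1, gh11-1 and cdt-2 were lower in both, and gh6-2, gh10-2 and clr-2 overlapped. Over all tested genes, 29.5% were higher without overlap and 26.5% lower, so 4 and 3 of 10 lie near the share of any gene. The median log2 fold change of the 10 genes was 0.034, and that of all tested genes was 0.029. At an unadjusted limma p under 0.05 there were 3 higher genes and 1 lower gene of the 10, against 10.2% and 11.1% of all tested genes.

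The libraries held between 7139105 and 14679872 reads in genes, and WT replicate 1 was the shallowest. A count of 0 allows up to 3 reads, worth between 2.35 and 4.84 normalized counts. The pas transcript was at 119 and 95.1 normalized counts for WT and at 43.1 and 98.1 for the ∆pas-labelled libraries (log2 fold change -0.70 ± 0.416, SE; adjusted p = 0.371 in limma). Its loss was thus not seen in the reads, and the mutant libraries are called by their label. The conidial markers con-6, con-8, con-10, eas and fl were all detected, 5 of 5, with a summed level of 16128 and 36215 normalized counts in WT and of 12111 and 10011 in the ∆pas-labelled libraries. Without the hydrophobin gene eas, which had 8931 and 30017 in WT, and 3311 and 2983 in the ∆pas-labelled libraries, the sums ran from 6198 to 8800. The markers did not lie on one side: eas was lower in both ∆pas-labelled libraries, con-6 and con-8 were higher in both, and con-10 and fl overlapped. The gene con-6 was at 636 and 562 in WT and at 999 and 1157 in the ∆pas-labelled libraries. For con-8 these values were 2527 and 1608, and 3066 and 2748. Over all tested genes, 29.5% were higher without overlap and 26.5% lower. The part of these markers in the results was not tested. In bulk RNA, fewer cells of a type and less RNA per cell cannot be told apart.

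**Figure D1:**
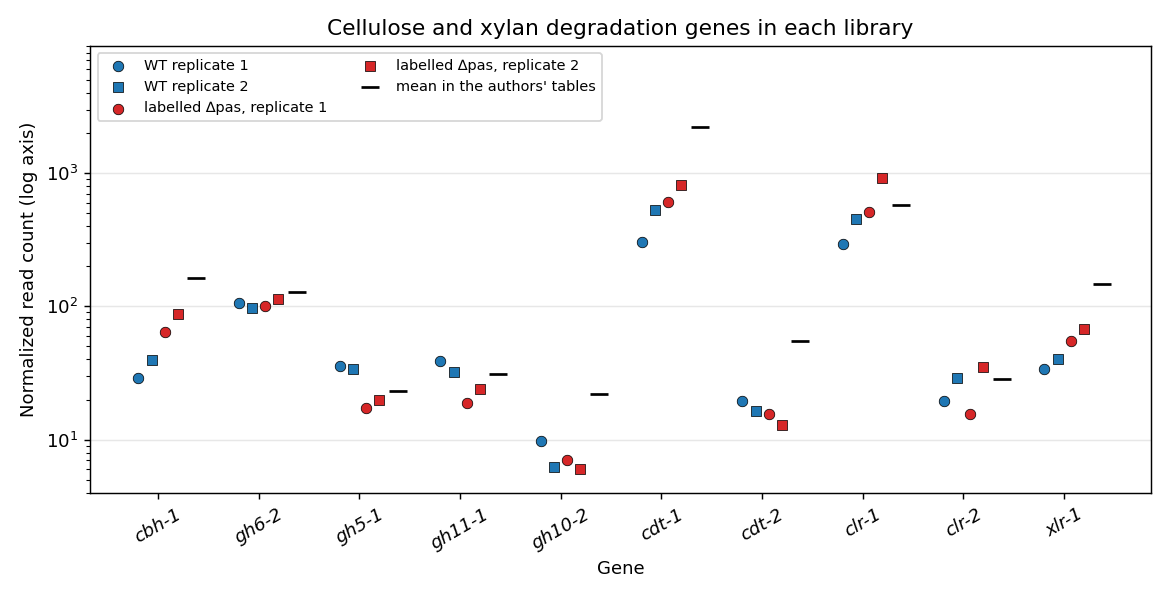
Normalized read count (log axis) of each of the 10 genes in the 4 libraries, with WT in blue and the ∆pas-labelled libraries in red, and as a black dash the mean count in the authors' deposited tables. The groups separate for 7 genes, 4 upward and 3 downward, and for 6 genes the authors' mean lies above all 4 libraries.

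On sucrose, the enzyme genes were low in all 4 libraries. The median gene of a library was at 197 to 207.4 normalized counts, and only cdt-1 and clr-1 of the 10 exceeded it, in every library. By rank among the 9730 genes, cdt-1 stood at percentile 57.2 to 75.7 and clr-1 at 56.6 to 77.5, whereas gh10-2 stood at 16.8 to 19.3. Levels of different genes were compared per kilobase of gene span, introns included, with the spans of the RefSeq annotation of assembly NC12. In WT the order of mean normalized counts per kilobase was cdt-1 at 130.9, clr-1 at 76.8, gh6-2 at 67.1, gh11-1 at 20.2, gh5-1 at 16.8, cbh-1 at 11.0, xlr-1 at 10.8, cdt-2 at 8.13, clr-2 at 6.99 and gh10-2 at 5.76. Neighbours whose 2 WT libraries overlapped on this scale were clr-1 and gh6-2, cbh-1 and xlr-1, cdt-2 and clr-2, and clr-2 and gh10-2. In the ∆pas-labelled libraries the first 3 places were the same, and cbh-1 came next at 24.5, then xlr-1 at 17.7, ahead of gh11-1 at 12.3 and gh5-1 at 8.92 normalized counts per kilobase.

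Among the cellulases, cbh-1, a cellobiohydrolase that works along the cellulose chain, had the largest log2 fold change of the 10 genes over all 4 libraries. Its normalized count was 29.1 in WT replicate 1 and 39.3 in WT replicate 2, out of 18 and 38 reads, and 64.3 and 87.7 in the ∆pas-labelled libraries, from 82 and 102 reads. Both ∆pas-labelled libraries thus lay above both WT libraries, with means of 34.2 ± 7.23 in WT and 76.0 ± 16.6 (SD, n = 2 each). Its log2 fold change came to 1.13 ± 0.328 (SE; adjusted p = 0.135 in limma), with a 95% interval of 0.34 to 1.92.

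The second cellobiohydrolase gene, gh6-2, was at 106.5 and 97.2 normalized counts for WT and at 100.4 and 114.4 for the ∆pas-labelled libraries. The groups overlapped, with a log2 change of 0.074 ± 0.233 (SE; adjusted p = 0.879 in limma). Its 95% interval, -0.49 to 0.64, leaves out a change of 2-fold in either direction. The endoglucanase gene gh5-1, whose product cuts within the chain, differed from the other cellulases. It was at 35.5 and 34.1 normalized counts for WT and at 17.3 and 19.8 for the ∆pas-labelled libraries. Here both ∆pas-labelled libraries lay below both WT libraries, with means of 34.8 ± 0.989 in WT and 18.5 ± 1.79 (SD, n = 2 each). The log2 fold change was -0.88 ± 0.357 (SE; adjusted p = 0.229 in limma). The 3 cellulases therefore had 1 higher, 1 lower and 1 overlapping gene, none of them past the threshold.

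Both xylanase genes had log2 fold changes below 0. The gene gh11-1, an endoxylanase of glycoside hydrolase family 11, was at 38.7 and 32.0 normalized counts for WT and at 18.8 and 24.1 for the ∆pas-labelled libraries. The groups did not overlap, with a log2 change of -0.70 ± 0.364 (SE; adjusted p = 0.319 in limma). The gene gh10-2, a family 10 endoxylanase, was the lowest of the 10. It was at 9.68 and 6.20 normalized counts for WT and at 7.06 and 6.02 for the ∆pas-labelled libraries, which is 6 to 9 reads per library. For WT replicate 1 the exact 95% Poisson interval of that count ran from 3.55 to 21.1, counting error only. The log2 fold change was -0.22 ± 0.582 (SE; adjusted p = 0.852 in limma). Its 95% interval ran from -1.63 to 1.18, which holds a change of 2-fold either way and leaves out larger rises and falls beyond those bounds. In RefSeq the span of gh10-2 overlaps that of NCU08190 by 24 bases, and that gene was at 70.3 to 122 normalized counts, so reads of gh10-2 are uncertain.

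The transporter genes were far apart in level. The gene cdt-1 was at 303 and 532 normalized counts for WT and at 611 and 813 for the ∆pas-labelled libraries. The libraries did not overlap, but the gap between the WT libraries, at 229 normalized counts, was larger than the gap of 78.6 between the groups. The means were 418 ± 162 and 712 ± 143 (SD, n = 2 each), with a log2 change of 0.81 ± 0.3 (SE; adjusted p = 0.199 in limma). The gene cdt-2, whose product is known to carry xylan fragments as well as cellodextrins, was at 19.4 and 16.5 normalized counts for WT and at 15.7 and 12.9 for the ∆pas-labelled libraries. The groups were apart by only 0.852 normalized counts, with a log2 change of -0.31 ± 0.427 (SE; adjusted p = 0.704 in limma). The span of cdt-1 overlaps that of NCU10770 by 340 bases in RefSeq, and NCU10770 had 0 reads in all 4 libraries.

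Of the regulators, clr-1 and xlr-1 were higher in both ∆pas-labelled libraries and clr-2 was not. The gene clr-1 was at 295 and 454 normalized counts for WT and at 508 and 915 for the ∆pas-labelled libraries. The groups did not overlap, and ∆pas replicate 2, with 1064 reads of this gene, was the highest library by 407 normalized counts. The means were 375 ± 112 and 712 ± 288 (SD, n = 2 each), with a log2 change of 0.90 ± 0.335 (SE; adjusted p = 0.202 in limma). Without ∆pas replicate 1 the adjusted p of limma was 0.0251 for a log2 change of 1.32, and without ∆pas replicate 2 it was 0.457 for 0.47. In that first fit, 13.4% of all tested genes were called.

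The gene xlr-1 was at 33.9 and 40.3 normalized counts for WT and at 54.9 and 67.1 for the ∆pas-labelled libraries. Its groups were separate, with a log2 change of 0.70 ± 0.304 (SE; adjusted p = 0.252 in limma). The gene clr-2, which acts below CLR-1 in the cellulose response, was at 19.4 and 28.9 normalized counts for WT and at 15.7 and 35.3 for the ∆pas-labelled libraries. The WT values lay between the others, with a log2 change of -0.0056 ± 0.504 (SE; adjusted p = 0.996 in limma). Its 95% interval ran from -1.22 to 1.21, so a change of 2-fold either way lies within it.

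**Figure D2:**
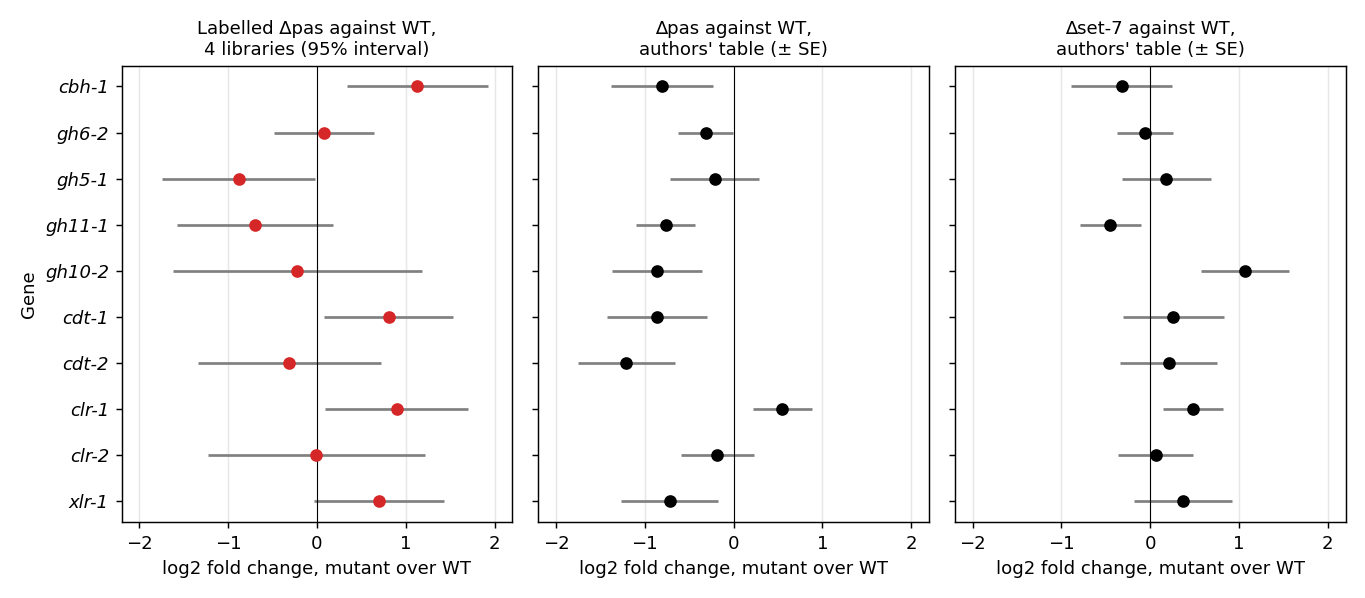
Log2 fold change of each of the 10 genes, mutant over WT, in the 4 libraries with its 95% interval (left) and in the authors' deposited tables for ∆pas (middle) and ∆set-7 (right) with its standard error. The left panel has 5 genes above 0 and 5 below; none of the values in any panel passed an adjusted p of 0.05.

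The share of reads outside annotated features split the libraries across the groups. WT replicate 1 had 5.41% of such reads and ∆pas replicate 2 had 6.76%, while WT replicate 2 had 15.2% and ∆pas replicate 1 had 13.9%. Within the pair with few such reads, the log2 differences were 1.56 for cbh-1, 1.42 for cdt-1, 1.63 for clr-1 and 0.96 for xlr-1. Within the pair with many they were 0.70, 0.20, 0.16 and 0.44 in the same order. Of the lower genes, gh5-1 was at -0.81 and -0.94 and gh11-1 at -0.66 and -0.74, alike in the pairs, while cdt-2 was at -0.55 and -0.072. Each pair holds 1 library per group, so these values have no replicate check.

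**Figure D3:**
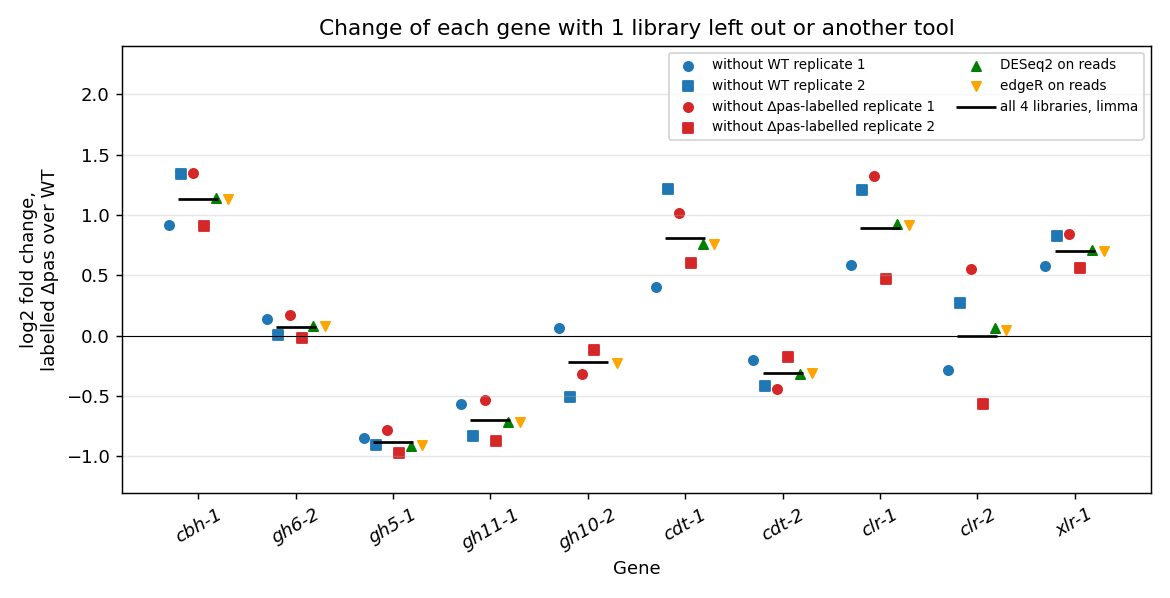
Log2 fold change of each of the 10 genes, labelled ∆pas over WT, with all 4 libraries (black bar), with 1 library left out (blue and red) and with DESeq2 or edgeR on the recovered reads (triangles). The signs of cbh-1, cdt-1, clr-1, xlr-1, gh5-1, gh11-1 and cdt-2 hold in all of these, while gh6-2, gh10-2 and clr-2 cross 0.

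The gene with the widest range over the 4 libraries was clr-1, at 1.63 on the log2 scale. The 3 tested genes with the most similar pattern, by the root mean square difference of centred log2 values over the 4 libraries, were NCU12075 at 0.0585, NCU16348 at 0.0604 and NCU07815 at 0.0611. NCU07815 was at 121 and 180 normalized counts for WT and at 202 and 335 for the ∆pas-labelled libraries. RefSeq gives these 3 genes no name.

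By position, the 10 genes were not at chromosome ends. Counted in protein-coding genes of NC12 from the nearest end, their ranks ran from 82 for cdt-2 to 665 for cdt-1. Of them, 0 lay within 50 genes of an end, against 6.83% of all tested genes, so 0 of 10 lies near the share of any gene.

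The wider pathway was followed with a list of 36 other genes of cellulose, xylan and sugar use, of which 30 were tested. Of these 30, 1 passed the test, NCU09491, and it was higher in the ∆pas-labelled libraries, as were 0.28% of all tested genes. The 30 had 19 log2 fold changes above 0 and 11 below, with a median of 0.14. That is 63.3% above 0, against 52.9% of all tested genes, whose median was 0.029. Without overlap, 11 of the 30 were higher and 4 lower, against 29.5% and 26.5% of all tested genes. At an unadjusted limma p under 0.05, 8 were higher and 1 lower, against 10.2% and 11.1%. RefSeq gives a symbol to 25 of the 36, and the rest are given by ID with no role. NCU09491 was at 6.46 and 6.20 normalized counts for WT and at 113 and 80.9 for the ∆pas-labelled libraries. It rose by 3.72 ± 0.376 on the log2 scale (SE; adjusted p = 0.028 in limma), and it is rank 4 from its chromosome end. Without WT replicate 1 or WT replicate 2 the fold change was 3.75 or 3.70, with an adjusted limma p of 0.259 or 0.269.

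Of the 7 further cellulases and β-glucosidases tested, 0 passed the test. The highest were gh3-3, a β-glucosidase at rank 6 from a chromosome end, with a log2 change of 0.88 ± 0.381 (SE; adjusted p = 0.252 in limma), and gh7-2 with 0.27 ± 0.452. Lowest on the log2 scale were gh3-4, another β-glucosidase, with -0.47 ± 0.458 and gh7-1 with -0.35 ± 0.549. The gene gh3-3 was at 17.8 and 28.9 normalized counts for WT and at 44.7 and 40.4 for the ∆pas-labelled libraries, without overlap.

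The gh61 genes encode copper enzymes that cut cellulose by oxidation, and cdh-1 the dehydrogenase that feeds them electrons. Of the 7 genes of this list that were tested, 0 passed. The gene gh61-3 was at 71.0 and 48.6 normalized counts for WT and at 30.6 and 31.8 for the ∆pas-labelled libraries, without overlap, a log2 change of -0.89 ± 0.332 (SE; adjusted p = 0.2 in limma). The gene gh61-2 had -1.20 ± 0.585 (SE; adjusted p = 0.294 in limma), with ∆pas replicate 1 inside the WT range at 55.7 normalized counts. Without ∆pas replicate 1 its log2 change was -1.99 (adjusted p = 0.0422 in limma), and without ∆pas replicate 2 it was -0.41 (adjusted p = 0.703). Without WT replicate 1 it was -0.74 and without WT replicate 2 -1.67, neither past the threshold. At the other end, gh61-6 had 0.46 ± 0.307 and gh61-5 had 0.16 ± 0.374 on the log2 scale.

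Besides NCU09491, the 5 other tested genes of the xylan list did not pass. NCU09775 was at 332 and 225 normalized counts for WT and at 837 and 380 for the ∆pas-labelled libraries, a log2 change of 1.04 ± 0.393 (SE; adjusted p = 0.204 in limma). The lowest were gh10-3, a family 10 xylanase gene at -0.081 ± 0.535, and NCU01900 at 0.048 ± 0.326 on the log2 scale. In the list of sugar transport genes 0 of 4 passed: NCU01633 had 1.06 ± 0.355 (SE; adjusted p = 0.171 in limma), NCU06138 had 0.086 ± 0.436, the high-affinity glucose transporter gene hgt-1 had -0.0069 ± 0.321 and NCU00821 had -0.56 ± 0.317.

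The repressor gene cre-1 was at 6640 and 6464 normalized counts for WT and at 8191 and 9805 for the ∆pas-labelled libraries, a log2 change of 0.45 ± 0.158 (SE; adjusted p = 0.182 in limma). The regulator vib-1, needed for growth on cellulose, had 0.41 ± 0.144 (SE; adjusted p = 0.186 in limma), NCU05846 had 0.24 ± 0.189, and col-26, a regulator of starch and glucose use, had -0.28 ± 0.147 on the log2 scale. In the list of 4 regulators, 0 passed. Invertase, the enzyme that splits sucrose, is encoded by inv. Its normalized count was 392 and 294 in WT and 523 and 971 in the ∆pas-labelled libraries, a log2 change of 1.07 ± 0.319 (SE; adjusted p = 0.139 in limma). The glucoamylase gene gla-1 had 0.75 ± 0.304 (SE; adjusted p = 0.226 in limma).

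**Figure D4:**
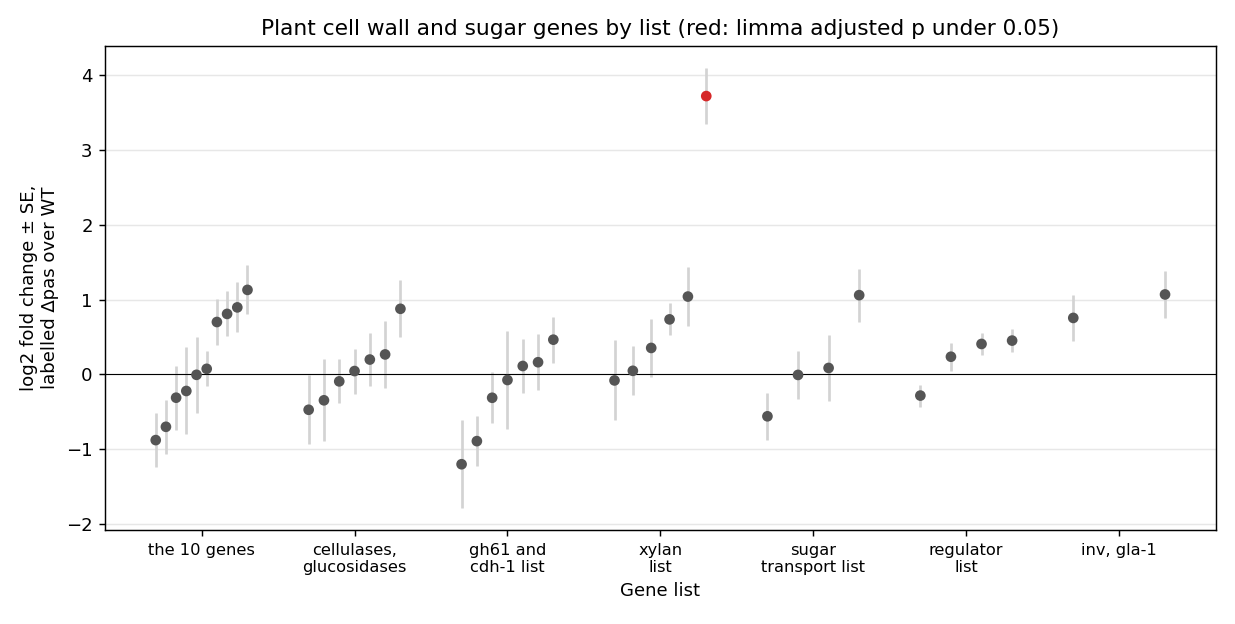
Log2 fold change with its standard error, labelled ∆pas over WT, of the 10 genes and of the 30 tested genes of the other lists, 1 point per gene. The red point, NCU09491 at 3.72, is the only gene shown with an adjusted limma p under 0.05.

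For the loss of set-7, the values are those of the authors' deposited table, with the sign turned so that a positive value is higher in the mutant. The targeted gene, set-7, was at -3.51 ± 0.4 (SE; adjusted p = 1.14e-15) in the authors' deposited table. Its direction served to set the sign, so only the size of its change is a check on that strain. An adjusted p under 0.05 for ∆set-7 was found for 0 of the 10 genes in the authors' deposited table, against 5.31% of the 8661 genes with an adjusted p there. At an unadjusted p under 0.05 there was 1 of the 10, gh10-2, in the authors' deposited table for ∆set-7, against 16.5% of all genes with a p there. Their log2 fold changes in the authors' deposited table were above 0 for 7 genes and below 0 for 3, with a median of 0.19, against -0.066 for all genes. The highest in the authors' deposited table was gh10-2 at 1.07 ± 0.499 (SE; adjusted p = 0.221), and the lowest was gh11-1 at -0.45 ± 0.343 (SE; adjusted p = 0.526). In the authors' deposited table, cbh-1 was at -0.32 ± 0.57 and cdt-1 at 0.26 ± 0.566 in ∆set-7, and clr-1 was at 0.48 ± 0.336, clr-2 at 0.062 ± 0.418 and xlr-1 at 0.37 ± 0.549 (SE).

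Of the 33 genes of the other lists with an adjusted p in the authors' deposited table for ∆set-7, 3 were past 0.05. Of all 8661 genes with an adjusted p there, 5.31% were. In the authors' deposited table, gla-1 was higher in ∆set-7 at 2.41 ± 0.308 (SE; adjusted p = 2.03e-12) and NCU01633 at 1.27 ± 0.387 (SE; adjusted p = 0.0255), while col-26 was lower at -0.88 ± 0.119 (SE; adjusted p = 4.61e-11). For comparison, the authors' deposited table for ∆pas had gla-1 at 0.55 ± 0.308, NCU01633 at 0.54 ± 0.387 and col-26 at -0.34 ± 0.116 (SE). NCU09491, at 3.72 in the 4 libraries, was at 0.75 ± 0.571 (SE; adjusted p = 0.691) in the authors' deposited table for ∆pas. In the authors' deposited table for ∆set-7, NCU09491 was at 0.98 ± 0.571 (SE; adjusted p = 0.356). Whether the authors' fit pulled fold changes toward 0 is not given in the sources used here. In the authors' deposited table for ∆pas the SE was 0.568 for gh7-4 at a mean count of 6.41 and 0.566 for cdt-1 at 2215. Sizes of change in the deposited tables and in the 4 libraries may thus differ in scale. Both deposited tables set a mutant against WT, and the mean counts were the same in both for all 9730 genes, so the comparisons are not independent.

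In the authors' deposited table for ∆pas the sign was turned likewise, and pas was then at -0.77 ± 0.357 (SE), with an adjusted p of 0.4. That table had 1 of the 10 genes above 0, clr-1, and 9 below. The sign differed from that in the 4 libraries for 4 genes, cbh-1, gh6-2, cdt-1 and xlr-1, and was the same for 6. In the authors' deposited table, cbh-1 was at -0.81 ± 0.57 in ∆pas (SE; adjusted p = 0.658), where the 4 libraries gave 1.13. In the authors' deposited table, cdt-1 was at -0.86 ± 0.566 (SE; adjusted p = 0.621), where the 4 libraries gave 0.81, and xlr-1 was at -0.72 ± 0.549 (SE; adjusted p = 0.692), where they gave 0.70. The gene gh6-2 was at -0.31 ± 0.31 in the authors' deposited table. Among the 6 with the same sign, clr-1 was at 0.55 ± 0.335 (SE; adjusted p = 0.582) in the authors' deposited table, gh11-1 at -0.76 ± 0.333 (SE; adjusted p = 0.344) and cdt-2, the farthest from 0, at -1.21 ± 0.547 (SE; adjusted p = 0.381). In the authors' deposited table gh10-2 was at -0.86 ± 0.51, gh5-1 at -0.21 ± 0.5 and clr-2 at -0.18 ± 0.412 (SE). At an unadjusted p under 0.05 there were 2 of the 10 in the authors' deposited table for ∆pas, gh11-1 and cdt-2, against 9.04% of all genes with a p. Of the 10 genes, 0 had an adjusted p under 0.05 for ∆pas in the authors' deposited table, against 1.19% of 7917 genes, and their median there was -0.74, against -0.055 for all genes.

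The mean counts in the authors' deposited tables show that other libraries entered that fit. For cdt-1 the authors' deposited mean was 2215 normalized counts, 3.92 times the mean of the 4 libraries and above the highest of them, 813. For cdt-2 the authors' deposited mean was 54.9, or 3.4 times that of the 4 libraries, for gh10-2 it was 22.1, for xlr-1 146 and for cbh-1 162. In all, 5 of the 10 genes had an authors' deposited mean over 2 times the mean of the 4 libraries, against 4.12% of all tested genes, and 6 of 10 had one above all 4 libraries, against 20.6%. Over all tested genes the median ratio was 1.00, so the 2 sets of mean counts are on 1 scale. The header of the count table names 2 further WT columns and 2 set7 columns, which match no sample of the series and were not analysed here. Which columns entered each deposited comparison is not given in the sources used here, so the ∆pas values of the authors' deposited table may rest on other WT libraries than those of the 4 libraries.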

How the data were processed

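Poly-A RNA libraries of 2 WT strains and 2 strains labelled ∆pas were analysed; the 4 ChIP libraries were not analysed here. The authors deposited a table of normalized counts per gene, a signal that is never negative, and 2 tables of their own comparisons, which give per the file headers a log2 fold change (WT over mutant) with a standard error, a Wald score, p-values and mean counts. The submitters' processing notes name Bowtie2, DESeq2 and deepTools; the counter, genome build, annotation and use of strand are not given in the sources used here, so overlapping genes and near-identical copies are uncertain. The count table has 4 further library columns, 2 named WT and 2 named set7, that match no sample of the series, and these were not used. Within a tolerance of 0.01 reads, 100% of the gene values of each of the 4 libraries were whole multiples of that library's smallest step, which gave back the reads; edgeR called 29 genes on them. The 4 summary entries of the counter, 12.1% to 22% of all reads, were left out. PCR reads without molecular identifiers are not independent, so intervals and floors cover counting error only.

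The 8219 of 9730 genes whose mean over the 4 libraries reached 5 were tested by limma 3.58.1 under R 4.3.3, on the log2 of the normalized count plus 1 (lmFit, eBayes with an intensity trend, 2 residual and 4.34 prior degrees of freedom), with the group as the only term, two-sided, and Benjamini-Hochberg adjustment over all tested genes. This scale understates the fold changes of low genes. A design with edgeR 4.0.16 for raw counts had been written; the normalized values called for limma. Alternatives were edgeR and DESeq2 1.42.0 on the recovered reads, TMM and median ratio scaling, pseudocounts of 0.5 and 5, other filters, no trend, a covariate for reads outside features, a block of the pairs of libraries alike in those reads (added after seeing the data), and each library left out. The code was tested on simulated data. An exact permutation test of 2 against 2 libraries cannot go below p = 0.333 and was not used; with 1 library per strain, p-values measure the spread between these libraries. The members and lists were chosen with earlier results of these data known. Besides the 10 genes, the text names each other listed gene past the threshold and the 2 highest and 2 lowest tested genes of each list, the 3 genes most like the member of widest range, and the targeted genes; NCU08190 and NCU10770 were added for their overlap. Gene names, spans and order are from RefSeq NC12, with no coordinates printed since the files name no build; 9729 gene IDs matched.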

Additional observations from a re-analysis of the deposited data

How the results depend on the processing

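In every fit that used all 4 libraries, 0 of the 10 genes were called, and with 1 library left out the number higher was 0 to 1 (clr-1, without ∆pas replicate 1) and the number lower 0. Of the 167 values of the 10 genes under alternatives, 9 changed sign, for gh6-2, gh10-2 and clr-2. The log2 fold change of clr-2 was 0.045 with edgeR, 0.0599 with DESeq2, 0.0051 with a pseudocount of 5 and 0.83 within the pair poor in reads outside features; that of gh10-2 was 0.16 within the other pair. With 1 library left out, the values ran from -0.019 to 0.17 for gh6-2, -0.51 to 0.063 for gh10-2, -0.57 to 0.55 for clr-2, -0.26 to 0.80 for gh7-2, -0.72 to 0.026 for gh7-1, -0.0056 to 0.33 for gh61-5, -0.047 to 0.14 for NCU01900, -0.72 to 0.56 for gh10-3, -0.21 to 0.38 for NCU06138, -0.48 to 0.46 for hgt-1 and -0.20 to 0.15 for set-7; hgt-1 had 0.0585 with edgeR and 0.058 with DESeq2. The median of the 10 genes was -0.071 to 0.36 with 1 library left out, 0.39 with a minimum mean of 20, which drops gh10-2 and cdt-2, and 0.47 within that first pair.

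Against 23 higher and 7 lower genes of all tested, DESeq2 gave 271 and 323 (45.6% higher, against 76.7%), no filter 15 and 3, no trend 7 and 0 (788 lower at an unadjusted p under 0.05), the covariate 12 and 1, a block of the pairs by reads outside features, added after seeing the data, 45 and 40 (0 of the 10 genes), and median ratio scaling 27 and 11. With 1 library left out the numbers ran from 0 to 518 higher and 0 to 585 lower; they were 0 and 0 without WT replicate 1 (357 and 329 at an unadjusted limma p under 0.05) and without WT replicate 2 (519 and 530), 518 and 585 without ∆pas replicate 1, and 29 and 18 without ∆pas replicate 2. The lone library of a group is then assumed to vary like the other group. Of the other listed genes, DESeq2 called 3 higher, NCU09491, inv and NCU01633, and with 1 library left out 0 to 4 were higher (NCU09491, inv, NCU01633 and gla-1, without ∆pas replicate 1) and 0 to 1 lower (gh61-2, in that same fit). The cause was not tested. Promoter motifs were not run, since no sequences were used here. By replicate number, no paired analysis was possible because the labels give strain names and no such numbers. With 6 to 9 reads of gh10-2 per library, its change is held only within -1.63 to 1.18 on the log2 scale.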

Other observations

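Of the 36 other listed genes, 6 were too low to test: gh7-4, gh61-4, gh61-7, gh10-1, gh11-2 and NCU04870, with at most 4.30 normalized counts in any of the 4 libraries. For gh7-4 the highest of the 4 libraries was at 1.57 normalized counts, while the mean in the authors' deposited tables was 6.41. For gh11-2, a family 11 xylanase gene, these values were 1.61 and 8.82. Of the 30 tested genes of the other lists, 7 had an authors' deposited mean over 2 times the mean of the 4 libraries, against 4.12% of all tested genes. They were led by NCU09775, where the authors' deposited mean was 5136 and the highest of the 4 libraries 837 normalized counts. For inv it was 1985, against a highest library of 971.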
